A study of Homo sapiens with 6 samples.

Results

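The nuclear genes of the mitochondrial respiratory chain and ATP synthase were followed in HEK293 cells exposed to salicylate. Members were taken by gene symbol, as every probe named for a nuclear NDUFA, NDUFB, NDUFC, NDUFS or NDUFV gene, an SDH gene, a UQCR gene, CYC1, a gene of the COX4 to COX8 series or an ATP5 gene, if the probe was detected (detection p-value under 0.05) on at least 2 of the 6 arrays. The symbols matched 114 probes of 85 genes among 47323 probes on the array. Of these, 99 probes of 75 genes were detected, and each was detected on all 6 arrays. The other 15 probes were detected on no array, so the choice of members did not depend on the treatment of any array. HEK293 is a permanent human cell line that was started from embryonic kidney. There were 2 arrays each of untreated control cells (0 min), of cells given 50 mM sodium salicylate for 30 min and of cells given the same dose for 60 min, per the labels. No mock-treated group was labelled, and nothing in the labels shows that the 2 arrays of a group are separate cultures. The p-values therefore cover the variation between arrays, which could be purely technical.

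The respiratory chain moves electrons from NADH (complex I) and succinate (complex II) through ubiquinone, complex III and cytochrome c to oxygen at complex IV. Complexes I, III and IV pump protons across the inner mitochondrial membrane, and ATP synthase uses the returning protons to make ATP. Salicylate, which the body forms from aspirin, is known to act as a weak uncoupler, letting protons cross that membrane without passing through ATP synthase. Most subunits are encoded in the nucleus, and their transcripts are abundant in dividing cells. Transcripts of the subunits encoded in mitochondrial DNA were not analysed here.

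The detected probes covered 33 genes of complex I, 3 of complex II, 8 of complex III, 10 of complex IV and 16 of ATP synthase. The symbol pattern also took in 5 detected genes that do not encode a subunit. These are ATP5IF1, which encodes the inhibitor of ATP synthase, COX7A2L, which encodes a factor that joins complexes III and IV into supercomplexes, the retrocopy UQCRHL and the pseudogenes ATP5F1EP2 and UQCRBP1. A probe of such a copy, or of its parent gene, may have measured both. Of the 10 genes that were not detected, 6 are variants of complex IV subunits known from particular tissues: COX6A2 and COX7A1 from heart and skeletal muscle, COX4I2 from lung, and COX6B2, COX7B2 and COX8C from testis. The commonly expressed counterparts COX4I1, COX6A1, COX6B1, COX7A2, COX7B and COX8A were all detected. The remaining undetected genes were NDUFA5, NDUFS6, ATP5MK and the antisense gene NDUFB2-AS1, each with 1 probe. Just outside the detection limit lay a COX6B2 probe, with a lowest detection p of 0.0532, and just inside it an ATP5MC2 probe, with a highest detection p of 0.0338.

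Arrays detected between 20726 and 21740 probes, and their median intensity before normalization lay between 143.1 and 147.6. Of 8 genes known from HEK293 cells 7 were detected, all but PAX2. Of these, 2 rose at 60 min (28.6%, against 8.94% of all genes with a detected probe). Of 10 marker genes of blood, liver, kidney tubule, muscle, vessel and connective tissue cells, 8 had a probe and 2 were detected. These were ALB and COL3A1, both dim, with control means of 6.34 and 6.74 on the log2 scale. The summed normalized intensity of the HEK293 markers was 52690 to 55780 at 60 min and 47940 to 50240 in control cells, and that of the other markers was 551.4 to 579.3 at 60 min and 509.2 to 529.2 in control cells. The part of this in the results below was not tested.

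After 60 min of salicylate most respiratory transcripts lay slightly above control, and a small number passed the test. Of 99 probes, 73 had a log2 change above 0 (73.7%, against 50.2% of the 22377 detected probes), with a median of 0.064 against 0.001 over all probes. Both 60 min arrays lay above both control arrays for 46 member probes (46.5%, against 28.3% of all probes) and below both for 15 (15.2%, against 28%). With limma and Benjamini-Hochberg adjustment over all detected probes at 0.05, 8 member probes rose and 1 fell. The share called, 9.09%, was below the 16.3% of all probes called in either direction. Rises made up 8.08% of member probes and 7.74% of all probes, and falls 1.01% of member probes and 8.54% of all probes. The median SE of a member's change was 0.0612 on the log2 scale, and the number of arrays limits this precision. Values are per amount of RNA in the sample, so fewer cells that express a gene and less of its RNA per cell cannot be told apart.

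**Figure D1:**
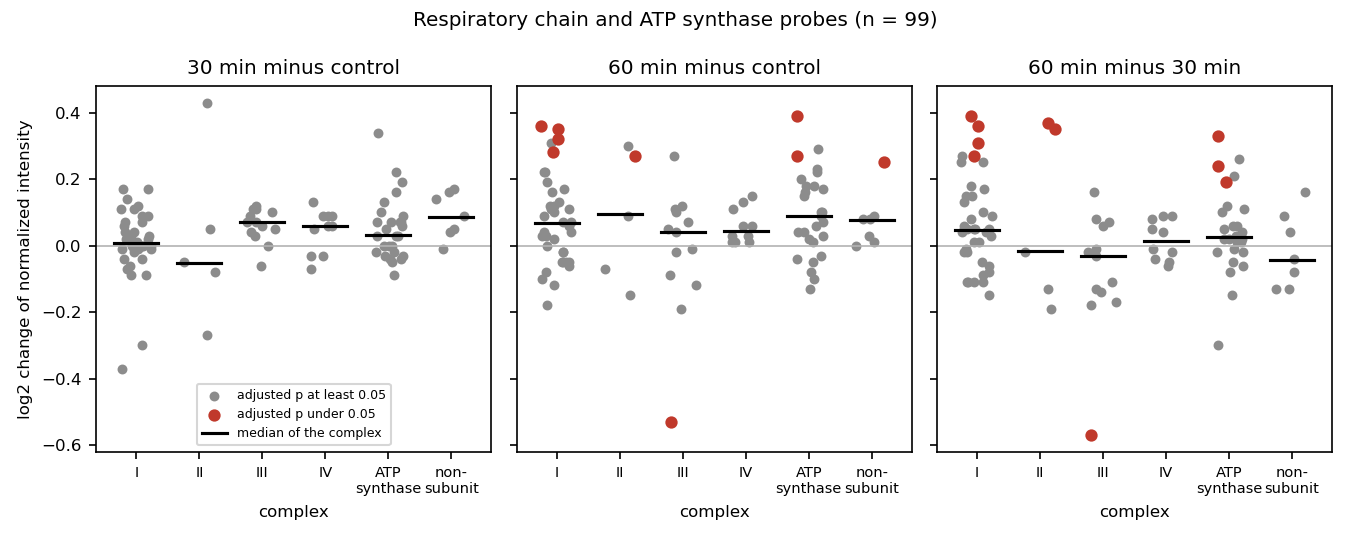
Log2 change of normalized intensity (vertical axis) for each of the 99 member probes by complex, for 30 min minus control, 60 min minus control and 60 min minus 30 min; black lines are medians and red points passed the test. No point is red in the first panel, and in the other panels the red points lie between 0.19 and 0.39 except 1 complex III probe at -0.53 and -0.57.

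The median deviation of the 99 probes from their own mean over the 6 arrays was -0.03 and -0.046 on the control arrays, 0.016 and -0.021 at 30 min, and 0.014 and 0.047 at 60 min. In this median both 60 min arrays and both 30 min arrays lay above both control arrays. The 30 min and 60 min arrays overlapped, with 60 min replicate 1 just below 30 min replicate 1. The complexes differed on 60 min replicate 1, where the median was 0.029 for complex I and 0.032 for complex IV, but -0.043 for complex II, -0.04 for complex III and -0.006 for ATP synthase. Complexes II and III there lay below control replicate 1, at 0.014 and 0.008. On 60 min replicate 2 the medians of the 5 complexes lay between 0.022 and 0.149. Over all detected probes the same medians lay between -0.004 and 0.007. Members are bright: when all detected probes were split into 4 equal groups by mean level, 74 of 99 were in the brightest. In that group the median change of all probes was 0.006 and 11.6% rose, and the 74 members had a median of 0.057. With median scaling in place of quantile normalization, the median over all probes moved to -0.045 and that of the members was 0.063.

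Complex I, which takes electrons from NADH, held 37 of the 99 member probes and 4 of the 8 that rose. They belong to NDUFA7, NDUFV1, NDUFA10 and NDUFA6. The sequences around the transcription start of NDUFA7, NDUFA6 and NDUFV1 are shown because these genes rose together at 60 min against both earlier groups. They are RefSeq sequences of GRCh38.p14, each 300 bases long, from 250 bases before to 50 bases after the start. NDUFA7 is at chr19:8321326-8321625 on the minus strand, NDUFA6 at chr22:42090723-42091022 on the minus strand and NDUFV1 at chr11:67606686-67606985 on the plus strand. Capitals mark matches, on either strand, to any of 4 short motifs: GCATGCGC of NRF1, AAGATGG of YY1, CCGGAAG of the ETS family and GGGCGG of Sp1.
NDUFA7: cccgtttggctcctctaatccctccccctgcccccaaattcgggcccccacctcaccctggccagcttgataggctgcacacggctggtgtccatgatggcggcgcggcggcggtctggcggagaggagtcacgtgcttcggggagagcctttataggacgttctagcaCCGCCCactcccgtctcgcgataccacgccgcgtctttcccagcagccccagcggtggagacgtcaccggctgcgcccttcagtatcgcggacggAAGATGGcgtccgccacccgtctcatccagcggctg
NDUFA6: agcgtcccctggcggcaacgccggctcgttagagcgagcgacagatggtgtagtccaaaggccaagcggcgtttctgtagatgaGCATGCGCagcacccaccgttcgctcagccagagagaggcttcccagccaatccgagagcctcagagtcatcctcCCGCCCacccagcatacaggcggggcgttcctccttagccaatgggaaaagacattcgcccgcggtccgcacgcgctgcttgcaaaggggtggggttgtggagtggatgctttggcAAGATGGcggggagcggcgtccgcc
NDUFV1: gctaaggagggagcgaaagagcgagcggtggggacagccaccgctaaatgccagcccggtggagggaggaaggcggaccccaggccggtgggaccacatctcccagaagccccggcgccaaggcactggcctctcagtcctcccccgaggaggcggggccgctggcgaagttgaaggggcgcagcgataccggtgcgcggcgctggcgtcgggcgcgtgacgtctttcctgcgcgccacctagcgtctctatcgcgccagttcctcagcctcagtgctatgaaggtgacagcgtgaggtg

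In the NDUFA7 sequence the YY1 letters lie at bases 15 to 21 after the start, and in that of NDUFA6 at bases 26 to 32. The NDUFA6 sequence also holds the NRF1 letters, at bases -166 to -159 from the start. The window of NDUFV1 holds none of the 4 motifs. NRF1, YY1 and ETS factors are known to bind promoters of many nuclear genes for mitochondrial proteins. Among the 75 detected genes, 60 had a promoter sequence. The NRF1 letters were in 18.3% of these 60, against 3.27% of 27305 promoters of the same length, the YY1 letters in 25% against 6.06%, the ETS letters in 30% against 10.7% and the Sp1 letters in 61.7% against 44.6%. Of the 8 genes that rose, 7 had a promoter sequence, with NRF1 letters in 1, YY1 letters in 2, Sp1 letters in 5 and ETS letters in 0. A match is a description of letters and not a measured binding site.

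NDUFV1 encodes the flavoprotein that accepts electrons from NADH at the tip of complex I, and NDUFA7 an accessory subunit of its matrix arm. The NDUFA7 probe measured 11.08 and 11.04 on the control arrays, 11.05 and 11.04 at 30 min and 11.44 and 11.38 at 60 min (log2 normalized intensity). Its 60 min arrays lay above all others, while the control and 30 min arrays overlapped. NDUFA7 rose 1.28-fold at 60 min against control (log2 change 0.35 ± 0.06, the SE of the fit with 2 arrays in each group, limma adjusted p = 0.00264) and by 0.36 against 30 min (adjusted p = 0.00278). NDUFV1 measured 11.64 and 11.73 on the control arrays, 11.72 and 11.67 at 30 min and 12.01 and 12 at 60 min. It rose 1.25-fold at 60 min (log2 change 0.32 ± 0.059, limma adjusted p = 0.00407), again with no overlap between the 60 min arrays and the rest. At 30 min neither passed, with log2 changes against control of -0.01 for NDUFA7 and 0.01 for NDUFV1.

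The other complex I genes that rose encode accessory subunits. NDUFA6, a small protein of the LYR family at the junction of the matrix and membrane arms, measured 10.55 and 10.43 on the control arrays, 10.55 and 10.44 at 30 min and 10.77 and 10.76 at 60 min. It rose by 0.28 ± 0.071 (limma adjusted p = 0.0188), and both 60 min arrays lay above the rest. NDUFA10, an accessory subunit of the membrane arm with a fold like that of nucleoside kinases, rose by 0.36 ± 0.087 on 1 of its 2 probes (limma adjusted p = 0.0161). That probe measured 9.86 and 10.03 on the control arrays, 10.16 and 9.94 at 30 min and 10.27 and 10.33 at 60 min. The other NDUFA10 probe changed by 0.17 (adjusted p = 0.0981). NDUFV3, an accessory subunit next to NDUFV1, passed the test at 60 min against 30 min alone, by 0.39 (limma adjusted p = 0.0357). Its probe measured 8.2 and 8.18 on the control arrays, 8.2 and 8 at 30 min and 8.61 and 8.38 at 60 min. The second, dimmer NDUFV3 probe changed by 0.25 at 60 min against 30 min (limma adjusted p = 0.447) and by -0.05 against control.

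Across complex I as a whole, 4 of 37 probes rose and 0 fell at 60 min by limma, with a median of 0.068. Rises made up 10.8%, against 7.74% of all probes. In the brightest of the 4 groups by mean level, where most members lay, 11.6% of all probes rose. An unadjusted p under 0.05 was found for 8 of the 37, and for 30.2% of all probes. Among the 6 probes of core subunits, the set conserved from bacteria, NDUFV1 alone passed, and the median was -0.001. The 31 probes of accessory subunits had a median of 0.091. The lowest change of the complex was that of NDUFB1, a subunit of the membrane arm, at -0.18 ± 0.13 (adjusted p = 0.382). Its 60 min arrays measured 7.58 and 7.63, below both control arrays at 7.94 and 7.64.

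**Figure D2:**
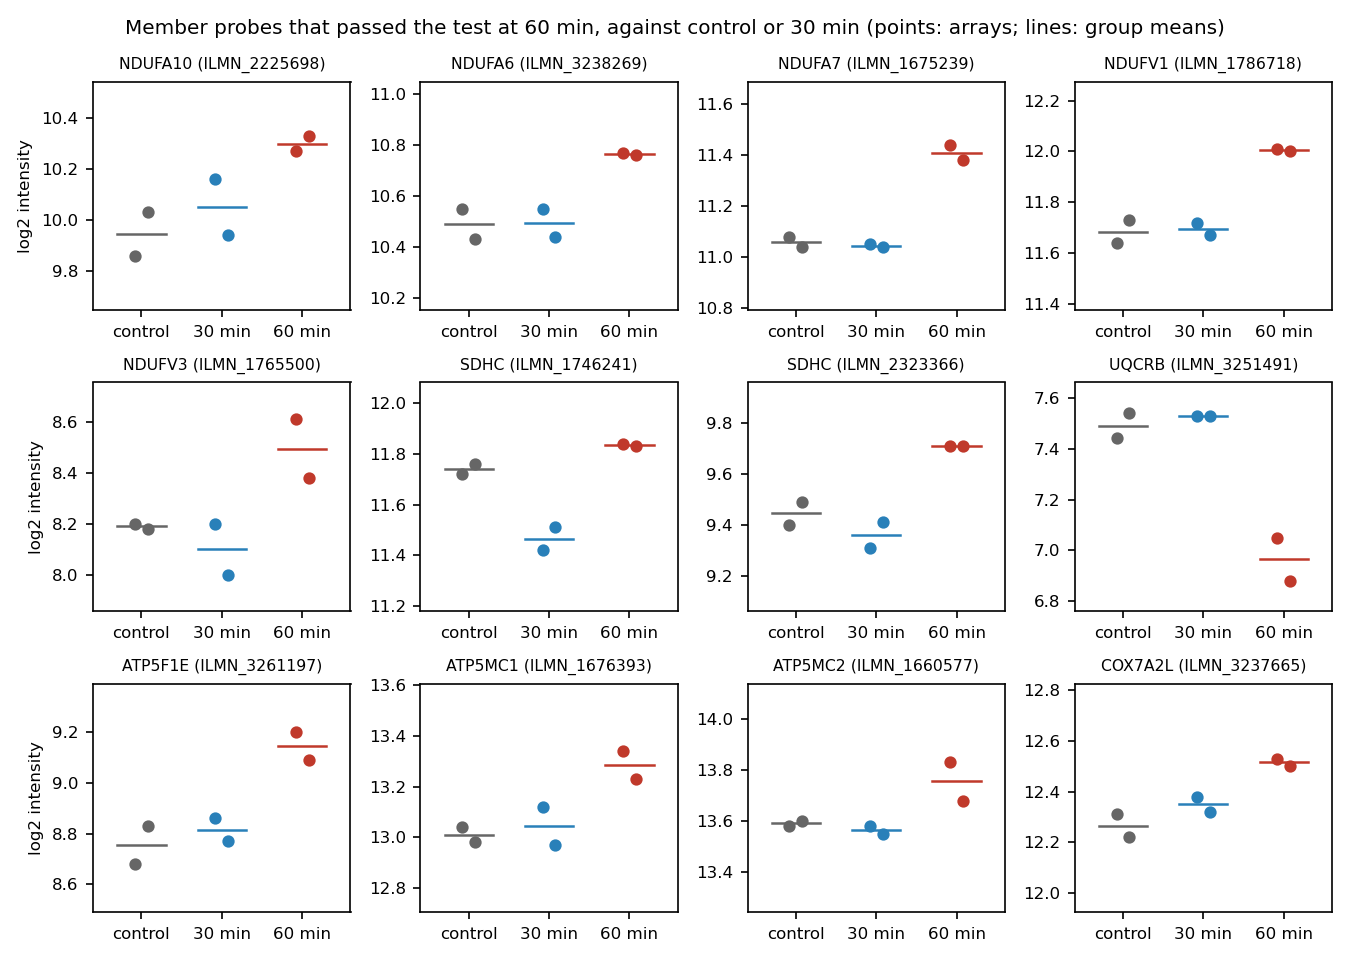
Log2 normalized intensity (vertical axis) of the 12 member probes that passed the test in either comparison with the 60 min group, on each array (points) with group means (lines) for control, 30 min and 60 min. In every panel except that of UQCRB the 60 min arrays are the highest, and every panel spans the same range of the log2 scale.

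Complex II is the enzyme succinate dehydrogenase, shared by the respiratory chain and the tricarboxylic acid cycle. SDHC, which encodes an anchor of the complex in the membrane, had 2 probes. One measured 9.4 and 9.49 on the control arrays, 9.31 and 9.41 at 30 min and 9.71 and 9.71 at 60 min, and rose by 0.27 ± 0.078 against control (limma adjusted p = 0.0361). The other measured 11.72 and 11.76 on the control arrays, 11.42 and 11.51 at 30 min and 11.84 and 11.83 at 60 min. Its arrays were lowest at 30 min, where the change against control was -0.27 (limma adjusted p = 0.143), and highest at 60 min, where it was 0.09 (adjusted p = 0.316). Between 30 and 60 min both SDHC probes rose, by 0.37 (limma adjusted p = 0.00237) and 0.35 (adjusted p = 0.0112). The catalytic flavoprotein gene SDHA did not pass on either probe, with log2 changes at 60 min of -0.15 and -0.07.

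SDHD, the second membrane anchor, differed between the arrays of 1 group more than between groups. It measured 9.65 and 9.71 on the control arrays, 10.01 and 10.21 at 30 min and 9.54 and 10.43 at 60 min. Both 30 min arrays lay above the controls, and the 60 min arrays lay on opposite sides of all others. Its log2 change was 0.43 at 30 min (limma adjusted p = 0.481) and 0.3 at 60 min (adjusted p = 0.332). The 30 min change passed when either 60 min array was left out of the fit (limma adjusted p = 0.0186 without replicate 1 and 0.0213 without replicate 2). The 60 min change was 0.74 without 60 min replicate 1 (adjusted p = 0.00037) and -0.14 without 60 min replicate 2 (adjusted p = 0.405).

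Complex III passes electrons from ubiquinol to cytochrome c. The 1 member probe that fell belongs to UQCRB, which encodes a small subunit near the ubiquinone site. This probe, ILMN_3251491, measured 7.44 and 7.54 on the control arrays, 7.53 and 7.53 at 30 min and 7.05 and 6.88 at 60 min. It fell by 0.53 on the log2 scale (SE 0.13, fold 0.694, limma adjusted p = 0.0155), with both 60 min arrays below the rest. The other UQCRB probes did not pass the test. ILMN_1759453 measured 8.82 and 8.99 at 60 min and 8.81 and 8.79 on the control arrays (log2 change 0.1), and the dim ILMN_2128489 changed by -0.02. The size of the fall also depended on the background correction, at -0.31 without it. Of the 13 probes of complex III, 7 had a change above 0, and the highest was UQCRH, which encodes the hinge protein, at 0.27 ± 0.093 (adjusted p = 0.0712).

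Complex IV, cytochrome c oxidase, reduces oxygen to water. All 10 of its probes, each for a different gene, had a small positive change at 60 min, from 0.01 (COX6A1) to 0.15 (COX6B1), where 50.2% of all probes were positive. By limma 0 of the 10 passed (16.3% of all probes did) and 2 had an unadjusted p under 0.05 (30.2% of all probes). COX6B1, on the side of the intermembrane space, measured 11.54 and 11.56 at 60 min and 11.39 and 11.41 on the control arrays (adjusted p = 0.114). COX6A1 measured 13.49 and 13.5 at 60 min and 13.5 and 13.47 on the control arrays, which overlap. Outside the enzyme itself, the supercomplex factor gene COX7A2L rose by 0.25 ± 0.058 at 60 min (limma adjusted p = 0.0121). It measured 12.31 and 12.22 on the control arrays, 12.38 and 12.32 at 30 min and 12.53 and 12.5 at 60 min, with the 60 min arrays above the rest.

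ATP synthase consists of the catalytic F1 head, the proton-driven Fo rotor in the membrane and the stalk that holds them. In F1, ATP5F1E, which encodes the epsilon subunit of the central shaft, rose 1.31-fold (log2 change 0.39 ± 0.092, limma adjusted p = 0.013). It measured 8.68 and 8.83 on the control arrays, 8.86 and 8.77 at 30 min and 9.2 and 9.09 at 60 min. The 2 probes of its pseudogene ATP5F1EP2 changed by 0.08 and 0.01. They were far brighter, with control means of 14.43 and 13.65 against 8.75 for the ATP5F1E probe. Which of the 2 genes each probe measured was not tested, so the rise is that of 1 dimmer probe. The genes of the large head subunits did not pass, with changes of -0.13 and -0.1 for the 2 probes of ATP5F1A and 0.02 for ATP5F1B. The ATP5F1A probe with the larger change measured 14.76 and 14.86 at 60 min and 14.95 and 14.92 on the control arrays (adjusted p = 0.145).

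The c subunit, whose ring turns with the flow of protons, is made from 3 genes that encode the same mature protein. ATP5MC1 had nearly the same change on both probes, 0.27 ± 0.064 (limma adjusted p = 0.0136) and 0.29 ± 0.11 (adjusted p = 0.0917). Its brighter probe measured 13.04 and 12.98 on the control arrays, 13.12 and 12.97 at 30 min and 13.34 and 13.23 at 60 min. ATP5MC2 changed by 0.16 on its bright probe (adjusted p = 0.0794), with 13.58 and 13.6 on the control arrays, 13.58 and 13.55 at 30 min and 13.83 and 13.68 at 60 min. Against 30 min it passed, at 0.19 (limma adjusted p = 0.0469). Its second, dim probe, ILMN_1807798, changed by 0.04 against control and by -0.3 against 30 min (adjusted p = 0.378), with 5.86 and 5.88 at 60 min and 5.9 and 6.45 at 30 min. ATP5MC3 changed by 0.1 (adjusted p = 0.47), and its arrays of the 60 min and control groups overlapped. All 7 probes of the membrane subunits e, f, g and 6.8 kDa proteolipid (ATP5ME, ATP5MF, ATP5MG and ATP5MJ) had changes between 0.01 and 0.23, and 6 had both 60 min arrays above both controls (85.7%, against 28.3% of all probes). By limma 0 of the 7 passed and 2 had an unadjusted p under 0.05, a share near that of all probes (30.2%). The 8 probes of the peripheral stalk lay between -0.05 and 0.2 and also held 0 calls, with 2 at an unadjusted p under 0.05. The inhibitor gene ATP5IF1 changed by 0.03 and 0.08 on its 2 probes.

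Of 21 genes with more than 1 detected probe, the probes differed by a median of 0.126 on the log2 scale at 60 min against control. Only UQCRB and NDUFV3 had probes that differed by more than 0.3, at 0.63 and 0.36. In 6 of the 21 the probes had opposite signs. For NDUFA10, SDHC and ATP5MC1 1 of 2 probes passed and both were positive.

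**Figure D3:**
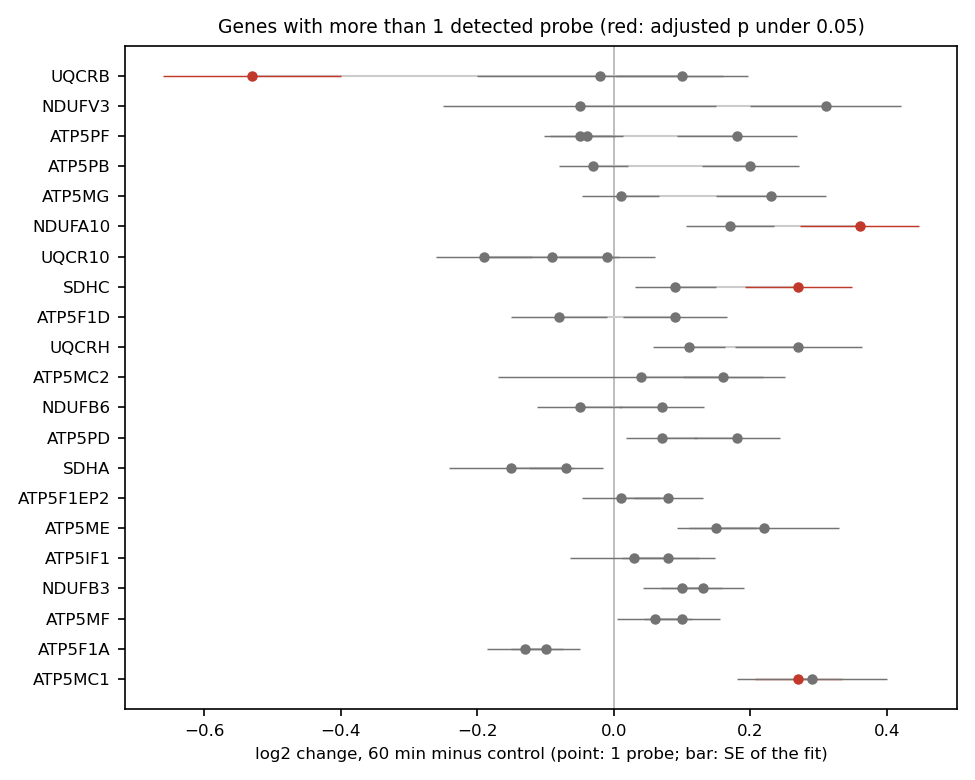
Log2 change at 60 min minus control (horizontal axis) of each probe of the 21 genes with more than 1 detected probe, with the SE of the fit as bars and red for an adjusted p under 0.05. The probes of ATP5MC1 nearly coincide, whereas those of UQCRB spread from -0.53 to 0.1.

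At 30 min no respiratory chain or ATP synthase probe passed the test. By limma 0 of 99 were called at an adjusted p under 0.05 and 7 had an unadjusted p under 0.05, while 0.232% of all detected probes were called and 10.3% had an unadjusted p under 0.05. The lowest adjusted p was 0.143. The median was 0.039 (0.001 over all probes), and 66 of 99 changes were above 0 (66.7%, against 50.4% of all probes). Both 30 min arrays lay above both control arrays for 32 member probes (32.3%, against 21.8% of all probes). The median was 0.012 without 30 min replicate 1. More probes were called without either of the 60 min arrays, over all probes as well as among the members. Among member probes SDHD had the highest change and NDUFS1, a core subunit of complex I, the lowest, at -0.37 (adjusted p = 0.618).

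Between 30 and 60 min, 9 member probes rose and 1 fell (10.1% called, against 15.5% of all probes). Rises among all probes were 7.5% and falls 7.98%. Besides the probes of NDUFA7, NDUFV1, NDUFA6, NDUFV3, SDHC and ATP5MC2 above, ATP5F1E rose by 0.33 and ATP5MC1 by 0.24 (limma adjusted p = 0.0308 and 0.0254), and UQCRB fell by 0.57. The comparisons at 60 min share the 60 min arrays, so their calls are not independent of each other. The median change was 0.034, and 0.007 without 60 min replicate 2. A change above 0 was found for 58 probes (58.6%, against 49.3% of all probes), and both 60 min arrays lay above both 30 min arrays for 27 (27.3%, against 27.2% of all probes). Fewer calls were made without 30 min replicate 1, 30 min replicate 2 or 60 min replicate 1, over all probes as well as among the members. Without 60 min replicate 2 more members were called in both directions, while fewer were called over all probes. ATP5MC2 lost its call in 9 of 14 settings and NDUFV3 in 7 of 14, and UQCRB lost it without either 30 min array.

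The calls depended on the scaling, on the variance model and on single arrays. With median scaling 0 of the 8 rises at 60 min against control and 0 of the 9 against 30 min were kept, while the UQCRB fall was kept in both (adjusted p = 0.00927 against control). The log2 changes of the 8 rises were then 0.17 to 0.29, against 0.25 to 0.39 with quantile normalization, and that of ATP5MC1 was 0.29 (adjusted p = 0.0561). Over all probes the split moved to 526 higher and 1594 lower at 60 min against control, beside 1733 and 1912 with quantile normalization. Without the intensity trend in the variance UQCRB alone remained. At 60 min against control, fewer calls were made without control replicate 1 or control replicate 2, over all probes as well as among the members. Without 60 min replicate 1 more members were called, while slightly fewer were called over all probes. NDUFA7 kept its call in all 6 omissions and lost it in 2 of 14 settings (adjusted p from 0.00172 to 0.119). NDUFV1 lost it in 3 of 14 (0.00263 to 0.133), including without control replicate 1, and SDHC lost it in 7 of 13 (0.0328 to 0.52). UQCRB lost it in 3 of 13 settings, without control replicate 1, control replicate 2 or 60 min replicate 2 (0.00927 to 0.117). The calls of ATP5F1E and NDUFA10 were also lost without control replicate 1, those of NDUFA6 and COX7A2L without control replicate 2, that of NDUFA10 without 60 min replicate 2, and that of ATP5MC1 without either control array or 60 min replicate 1.

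**Figure D4:**
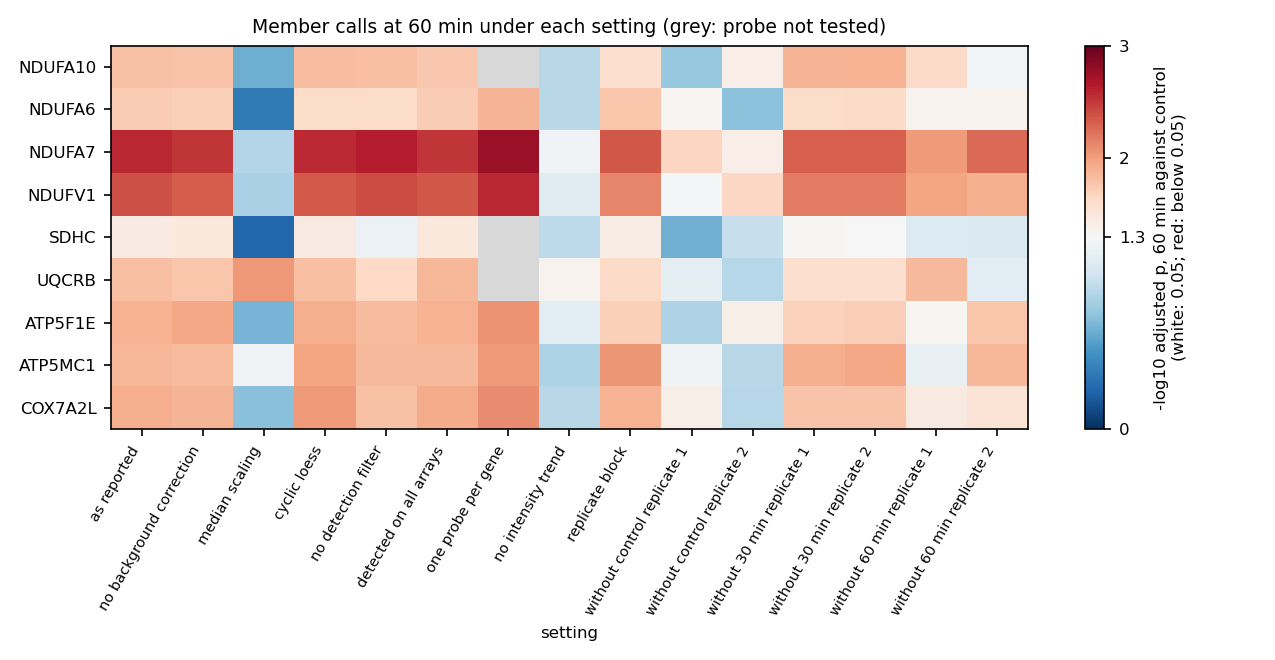
Adjusted p at 60 min against control on a -log10 scale (colour) for the 9 member probes called (rows) under each setting (columns), with red below 0.05, blue above it and grey where a probe was not tested. The columns for median scaling and for no intensity trend are blue for every row except UQCRB.

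Genes that assemble, supply or regulate the respiratory chain had calls in both directions at 60 min. The shares to read these lists against are those of all 12547 genes with a detected probe, each by its brightest probe as in the lists: 19.7% were called, 8.94% higher and 10.8% lower, with a median of -0.008. Of 52 detected assembly factors, 6 rose and 4 fell (19.2% called, near the share of all genes; median 0.012). CMC1 rose by 0.45 ± 0.065 (limma adjusted p = 0.00104), while COX19 and COA7 fell by 0.53 and 0.5 (adjusted p = 0.0031 and 0.00345); all of these act in building complex IV. With median scaling 2 rose and 4 fell, without control replicate 1 the counts were 3 and 3, without control replicate 2 they were 1 and 2, without 60 min replicate 2 they were 3 and 3, and without the intensity trend 1 and 0. Of 19 genes of electron carriers and ubiquinone synthesis, 1 rose and 2 fell (15.8% called, near the share of all genes). ETFB, a subunit of the flavoprotein that brings electrons from fatty acid oxidation, rose by 0.41 ± 0.061 (limma adjusted p = 0.00121). COQ10B, which binds ubiquinone, and COQ8A, a kinase-like protein of its synthesis, fell by 0.33 and 0.34 (adjusted p = 0.00399 and 0.00413), the first call being lost without control replicate 2 and the second without control replicate 1. All 3 calls were lost without the intensity trend.

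Of 17 tricarboxylic acid cycle genes, 3 rose and 0 fell, with a median of 0.013, and 1 rose with median scaling. The share called, 17.6%, was near the 19.7% of all genes, of which 8.94% rose and 10.8% fell. When the fit was made on probes detected on all arrays, or on 1 probe per gene, 3 rose and 1 fell. IDH2, the mitochondrial NADP-dependent isocitrate dehydrogenase, rose 1.73-fold (log2 change 0.79 ± 0.071, limma adjusted p = 6.72e-05), more than any member, and kept its call in all 14 settings. SUCLG2 and SUCLG1, subunits of succinyl-CoA ligase, rose by 0.46 and 0.21 (adjusted p = 0.00276 and 0.0209). The SUCLG2 call was lost with median scaling, and that of SUCLG1 in 6 of 14 settings, among them without any 1 of the control or 60 min arrays.

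Of 20 detected regulators of mitochondrial biogenesis, 9 fell and 0 rose at 60 min against control, with a median of -0.205. This is 45% lower, against 10.8% of all genes, whose median was -0.008. The list also holds enzymes that copy or transcribe mitochondrial DNA. Of the 9 that fell, TWNK, POLG, POLG2 and POLRMT are such enzymes, and the others are PPRC1, GABPB2, ESRRG, YY1 and HCFC1. The regulators PPARGC1A, NRF1, GABPA and ESRRA did not pass. When the fit itself was made on 1 probe per gene, 9 fell and 1 rose. TWNK, the helicase that unwinds mitochondrial DNA, fell by 0.61 on the log2 scale (SE 0.072, limma adjusted p = 0.000415) and kept its call in all 14 settings. The transcription factor gene YY1 fell by 0.46 (SE 0.074, adjusted p = 0.00184), and POLG, the catalytic subunit of the mitochondrial DNA polymerase, fell by 0.31 (SE 0.067, adjusted p = 0.0084). The POLG call did not hold when control replicate 1 or control replicate 2 was left out. At 30 min 0 of the 20 passed by limma and the median was 0.012. The count at 60 min was 5 with median scaling, 3 without control replicate 1, 2 without control replicate 2 and 6 without 60 min replicate 2, and 1 without the intensity trend. The median lay between -0.263 and -0.153 over the 14 settings.

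**Figure D5:**
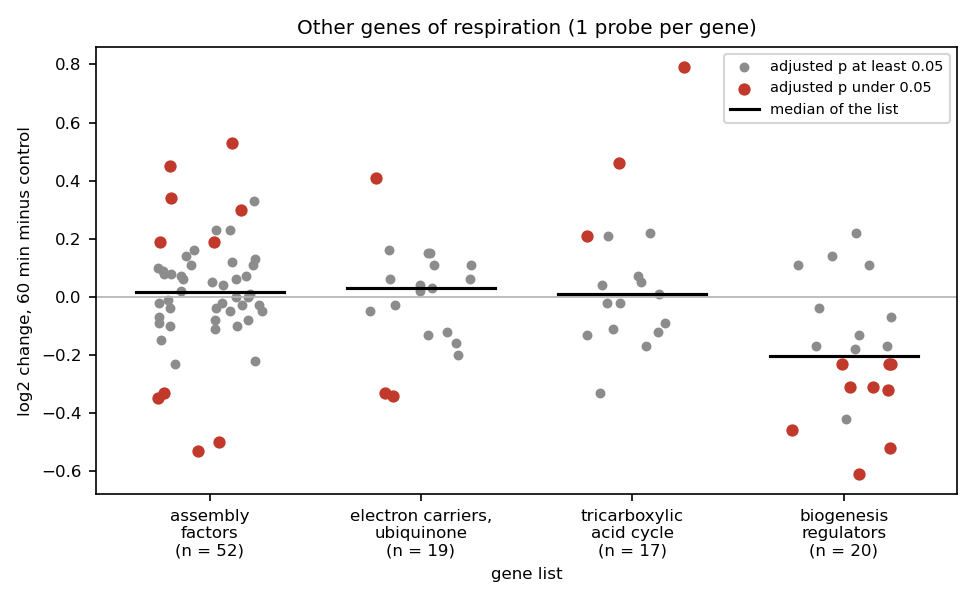
Log2 change at 60 min minus control (vertical axis) of the detected genes of 4 related lists, 1 probe per gene, with black lines at the medians and red for an adjusted p under 0.05. The red points of the biogenesis regulators all lie below 0, whereas those of the assembly factors lie on both sides.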

How the data were processed

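The authors deposited bead intensity values of 47323 probes on a linear scale, not normalized, with a detection p-value beside each intensity, per the file headers. The deposited series table is on a log2 scale and was matched to within 5e-07 by quantile normalizing the log2 intensities with no background correction. The submitters' processing notes list GenomeStudio 2011.1 and R 2.15.3. Each detection p-value column follows its own array: with probes ordered by intensity it never rose (100% of steps, against at most 67.2% for another array).

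Intensities were corrected with neqc of limma 3.58.1 in R 4.3.3 (normexp, controls inferred from the detection p-values, offset 16), quantile normalized and taken to log2. Probes with a detection p under 0.05 on at least 2 arrays (22377) were fitted over all 6 arrays with a mean per group and moderated variances with an intensity trend (3 residual and 9.25 prior degrees of freedom), Benjamini-Hochberg adjusted over all of them. SE is that of the fit. Gene symbols came from the platform annotation; 30113 probes had 1 symbol, 8 several and 17202 none in the table used. List genes were represented by their detected probe with the highest mean.

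Members and lists were chosen with earlier results of these data known. Named are all members that passed in any comparison, the highest and lowest change of each complex at 60 min, NDUFA7, NDUFV1, complex II, the c subunit genes, genes whose probes differed by over 0.3 and, from each list, up to 3 genes of lowest adjusted p. NDUFS1, ATP5F1B and the Fo membrane subunit genes were named after their values were seen. Alternatives changed the background correction, scaling, detection filter, probe choice, variance trend, replicate block or left out an array (14 settings). Promoters were searched in Python 3.11.15.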

Additional observations from a re-analysis of the deposited data

Results flagged for a closer look

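Each of the following probes is listed because its change at 60 min differed from its change at 30 min, as tested by the contrast of the 60 min and 30 min groups in limma (adjusted p under 0.05). The difference was 0.36 for NDUFA7, 0.31 for NDUFV1, 0.27 for NDUFA6 and 0.39 for NDUFV3 in complex I. In complex II it was 0.37 for SDHC probe ILMN_1746241, whose change was 0.09 at 60 min and -0.27 at 30 min, and 0.35 for SDHC probe ILMN_2323366. For UQCRB probe ILMN_3251491 the difference was -0.57. In ATP synthase it was 0.33 for ATP5F1E, 0.24 for ATP5MC1 and 0.19 for ATP5MC2.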

How the results depend on the processing

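Of the counts of member probes called, 9 at 60 min against control and 10 at 60 min against 30 min, each became 1 with median scaling and 1 without the intensity trend; the cause was not tested. The median change at 60 min against 30 min was 0.012 with median scaling. When each array was left out in turn, the counts ran from 3 to 14 at 60 min against control, 0 to 2 at 30 min against control and 4 to 14 at 60 min against 30 min, and the medians from 0.05 to 0.076, 0.012 to 0.059 and 0.007 to 0.035. The SDHD change at 60 min against 30 min was -0.13, turned to 0.31 (adjusted p = 0.0471) without 60 min replicate 1 and was -0.57 without 60 min replicate 2. With 1 probe per gene, 7 of 75 member genes were called at 60 min against control, 6 of them on probes called above. In that setting 22.9% of all genes were called, a higher share. Over all probes the count of 3645 at 60 min against control became 2120 with median scaling, 1086 without the intensity trend, 1431 without control replicate 1 and 1333 without control replicate 2. Samples shared only a replicate number: deviations of same-numbered arrays correlated at between -0.0778 and 0.0779, and with the replicate number as a block 9 member probes were called at 60 min against control, 0 at 30 min and 9 at 60 min against 30 min, where the call of ATP5MC2 was lost. At 60 min against control, 65 to 75 of 99 members had a positive change over the settings, or 57 of 75 with 1 probe per gene. At 30 min against control, 52 of 99 did without 30 min replicate 1 (52.5%, against 49% of all probes). At 60 min against 30 min, 50 of 99 did without 60 min replicate 2 (50.5%, against 49% of all probes). The largest standard errors of members, from 0.2 to 0.22, were those of probes of NDUFS1, ATP5MC2, NDUFB4, NDUFV3 and SDHD.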
